A study of Homo sapiens with 6 samples.

Results

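The genes of chromosome band 12p13.2 to 12p13.1 described here, from MAGOHB to CDKN1B, were measured in HAP1 cells with wild-type or substituted CTCF. The rows of the count table for MAGOHB, STYK1, ETV6, LRP6, MANSC1, DUSP16, CREBL2, GPR19 and CDKN1B were found by Ensembl identifier. They are 9 of 57773 genes in the table, and all 9 were among the 14835 genes that passed the filter on low counts. HAP1 is a human cell line that carries a nearly haploid genome and descends from leukaemia cells. Polyadenylated RNA was sequenced from 3 wild-type libraries and from 3 libraries with the genotype CTCF Y226A, F228A, called mutant here, in a study of how cohesin and CTCF anchor chromatin loops. The substitutions were made with a Cas9 plasmid and a repair oligonucleotide, followed by puromycin selection and Sanger sequencing of clones. The labels repeat this protocol for every library and do not say whether the wild-type cells were also transfected or selected. Whether the 3 mutant libraries represent several clones or several cultures of 1 clone is not in the labels, and their descriptions share 1 number. What the substitutions do and what a clone carries by chance therefore cannot be told apart, and all spreads below are spreads between these 6 libraries.

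The 9 genes were chosen with their differences between the genotypes in earlier results of these data in view. Those differences are given as a description, and no p-value is given for any of them. A gene was called when its adjusted p in edgeR's quasi-likelihood test over all tested genes was under 0.05. Expression is given as CPM, the library-size-normalised count, scaled by the trimmed mean of M-values (TMM), and log2 fold changes are those of mutant over wild type with their standard error (SE). In bulk RNA, fewer cells that express a gene and less RNA per cell cannot be told apart.

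CTCF binds insulator sites and halts the loop-extruding cohesin ring, and its N-terminal part, where the substituted residues lie, contacts cohesin. The 12p13 region is known for a set of regulators that are often deleted together in leukaemia. ETV6 is an ETS-family transcriptional repressor and a frequent fusion partner in leukaemia. CDKN1B encodes the cyclin-dependent kinase inhibitor p27Kip1, which holds cyclin E and CDK2 inactive in G1. DUSP16 is a MAP kinase phosphatase that acts on JNK and on the stress kinase family named after p38. LRP6 is a co-receptor of canonical WNT signalling.

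Libraries held 7764009 to 9610028 gene counts, and TMM factors ran from 0.995 to 1.004. Correlations of log2 CPM across genes, which are not independent replicates, were 0.992 to 0.993 within genotypes and 0.968 to 0.970 between them. The edited gene CTCF itself was at 109 ± 3.14 CPM in the wild type and 135 ± 4.12 CPM in the mutant (mean ± SD, n = 3 each). Blood-lineage markers were mostly missing: PTPRC, SPI1, GATA1 and HBG1 had 0 counts in every library, and 8 of 11 listed markers stayed under 1 CPM. The summed level of that list was 61.0 to 65.6 CPM in the wild type and 94.7 to 101.3 CPM in the mutant, most of it TAL1 and KIT. The higher mutant sum came from TAL1 (31.9 ± 2.49 and 67.5 ± 3.575 CPM), while KIT was at 22.4 ± 1.03 and 23.6 ± 2.32 CPM. RUNX1 went the other way, at 8.90 ± 1.11 CPM in the wild type and 5.84 ± 0.332 CPM in the mutant. Epithelial markers summed to 60.7 to 65.0 and 63.9 to 73.0 CPM, with 3 of 7 under 1 CPM and KRT19 at 0. Within that sum ESRP1 (6.82 ± 0.967 and 16.4 ± 2.41 CPM) and EPCAM (1.92 ± 0.142 and 3.97 ± 0.763 CPM) were called higher in the mutant, and KRT8 (20.5 ± 2.41 and 11.7 ± 0.692 CPM) lower. KRT18 was at 32.39 ± 1.881 and 36.55 ± 2.255 CPM, while CDH1 had 11 wild-type and 1 mutant counts and CLDN4 20 and 10. Fibroblast markers summed to 26.2 to 30.7 and 31.4 to 41.4 CPM, with 5 of 7 under 1 CPM and COL1A2, DCN and LUM at 0. The higher fibroblast sum came from COL1A1, with 688 wild-type and 925 mutant counts, while THY1 had 29 and 16, PDGFRB 20 and 5, and COL3A1 9 and 0. The part of these markers in the results below was not tested.

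By GENCODE v29 on GRCh38, the genes stand on chromosome 12 in the order MAGOHB, STYK1, ETV6, LRP6, MANSC1, DUSP16, CREBL2, GPR19 and CDKN1B. The counts were made on hg19, so these positions serve only for location. MAGOHB (ENSG00000111196.5) spans 10604190 to 10613623 and STYK1 (ENSG00000060140.4) spans 10618939 to 10674318, both on the minus strand. ETV6 (ENSG00000139083.6) spans 11649854 to 11895402 on the plus strand. LRP6 (ENSG00000070018.4) spans 12116025 to 12267012, MANSC1 (ENSG00000111261.9) 12326056 to 12350541 and DUSP16 (ENSG00000111266.4) 12474210 to 12562383, all on the minus strand. CREBL2 (ENSG00000111269.2) spans 12611827 to 12645108 on the plus strand, GPR19 (ENSG00000183150.3) 12660891 to 12696207 on the minus strand and CDKN1B (ENSG00000111276.6) 12715058 to 12722371 on the plus strand. All 9 are protein coding. The first 2 genes lie 5.32 kb from each other and 976 kb from ETV6, while gaps between the genes from LRP6 to CDKN1B are 15.8 to 124 kb. GPR19 and CDKN1B point away from each other across 18.9 kb.

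Promoter sequences from RefSeq (GRCh38.p14) were available for MAGOHB, ETV6, DUSP16, CREBL2 and CDKN1B, 5 of the 9 genes. The 250 bases before the start of DUSP16, which was called higher in the mutant, and of ETV6, which was not called, are shown because they are alike in base composition. Capitals mark matches, on either strand, to AGGGGGC, 7 letters from the core of the CTCF motif, and to the CCAAT box.
DUSP16, chr12:12562864-12563113, minus strand: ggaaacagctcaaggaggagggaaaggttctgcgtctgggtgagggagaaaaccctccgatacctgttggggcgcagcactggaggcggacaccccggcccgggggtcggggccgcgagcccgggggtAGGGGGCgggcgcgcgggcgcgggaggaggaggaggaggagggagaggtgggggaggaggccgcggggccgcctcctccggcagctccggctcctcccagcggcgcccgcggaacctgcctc
ETV6, chr12:11649424-11649673, plus strand: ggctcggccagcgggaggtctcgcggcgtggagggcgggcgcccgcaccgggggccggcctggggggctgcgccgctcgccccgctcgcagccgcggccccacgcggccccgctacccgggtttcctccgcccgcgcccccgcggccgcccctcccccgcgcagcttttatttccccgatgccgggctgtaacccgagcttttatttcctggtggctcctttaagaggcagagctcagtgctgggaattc
GC content was 74.8% for DUSP16 and 74.4% for ETV6, with 25 and 32 CpG dinucleotides, against medians of 58% and 11 over 35114 RefSeq promoters of this length. AGGGGGC occurred once in the DUSP16 window, in none of the other 4 windows and in 19.5% of all promoters.

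CDKN1B had 2 matches to CCAAT, a letter string present in 41.5% of promoters and in none of the other 4 windows. They are shown with 10 bases on each side, 174 and 50 bases before the RefSeq start.
CDKN1B, chr12:12717184-12717208, plus strand: acgcgaccagCCAATctcccggcgg
CDKN1B, chr12:12717308-12717332, plus strand: gccgccgcaaCCAATggatctcctc
The CDKN1B window had 64.4% GC and 27 CpG dinucleotides, that of CREBL2 57.2% and 12, and that of MAGOHB 41.2% and 5. Set against the GENCODE v29 spans above, the windows of MAGOHB and CDKN1B lie inside the annotated gene and that of CREBL2 overlaps its start, so these are windows before the RefSeq start and not before every annotated start. The DUSP16 and ETV6 windows lie wholly before the annotated genes, and so do their RefSeq starts. The 50 bases after the RefSeq start occurred in 0 GENCODE v29 transcripts of DUSP16 and 0 of ETV6. They occurred in 4 of MAGOHB, 1 of CREBL2 and 1 of CDKN1B. Strings of the ETS core CCGGAAG, the E2F site TTTCCCGC and the TATA box TATAAA were found in none of the 5 windows and in 11.8%, 2.02% and 15% of all promoters. A match or its absence says nothing of the factor's binding.

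Of the 9 genes, 5 were called higher in the mutant (STYK1, LRP6, MANSC1, DUSP16 and CDKN1B), 1 was called lower (GPR19) and 3 were not called (MAGOHB, ETV6 and CREBL2). Over all tested genes 21.2% were called, 11.9% higher and 9.26% lower. Values of the genotypes were separate for 6 of the 9 genes, the same 6 that were called, and for 35.5% of all tested genes. Nothing is read from these counts, because the choice of the 9 genes used this contrast. The median log2 fold change was 0.32 for the 9 genes and -0.001 for all tested genes.

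**Figure D1:**
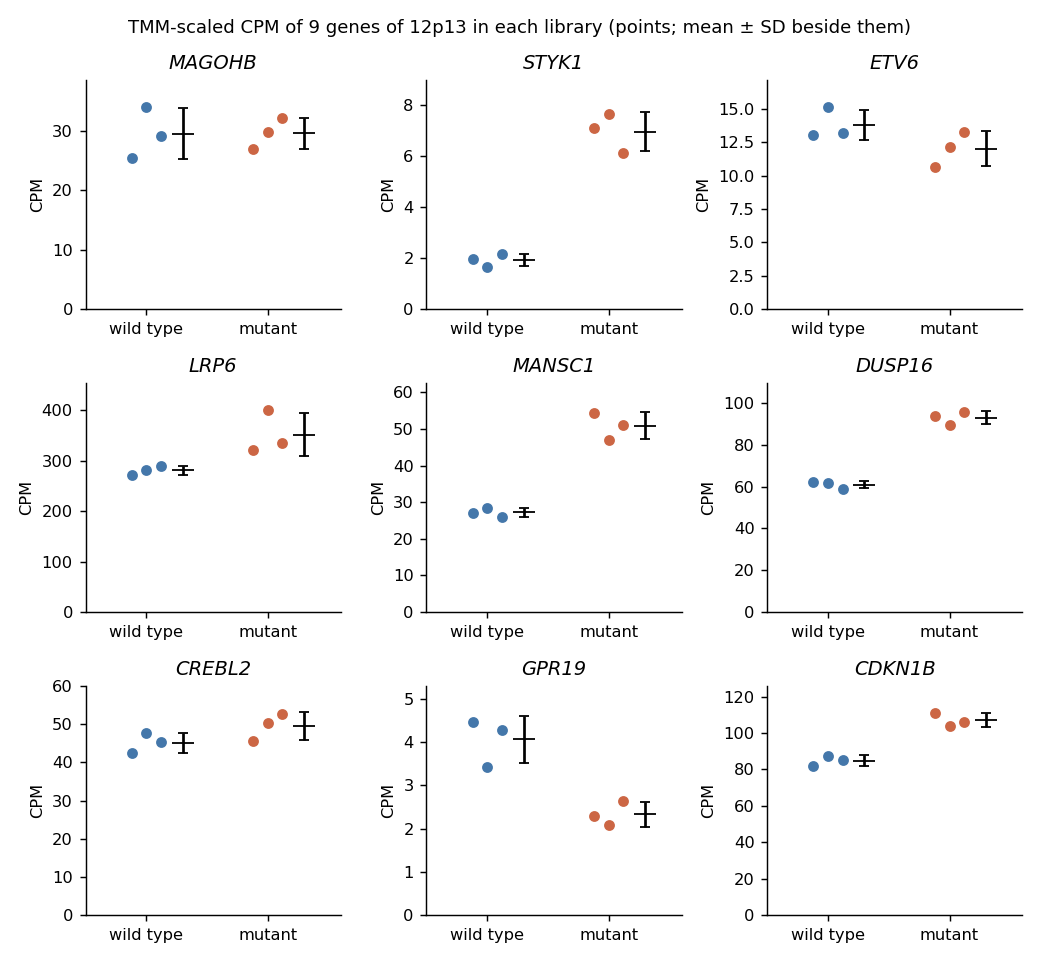
TMM-scaled CPM (vertical axes, each starting at 0) of the 9 genes in the 3 wild-type and 3 mutant libraries, in chromosomal order; points are libraries, replicates 1 to 3 from left to right, and bars are mean ± SD. STYK1, LRP6, MANSC1, DUSP16 and CDKN1B were higher in every mutant library than in every wild-type library, GPR19 was lower, and the points of MAGOHB, ETV6 and CREBL2 overlapped.

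Among the cell-cycle and signalling regulators, CDKN1B and DUSP16 were higher in the mutant and varied little between libraries of a genotype. CDKN1B was at 81.7, 87.5 and 85.3 CPM in wild-type replicates 1 to 3 and at 111, 104 and 106 CPM in mutant replicates 1 to 3. Its lowest mutant library was thus above its highest wild-type library, and its coefficients of variation were 3.43% and 3.41%. The fold change was 1.26 (log2 0.34, SE 0.062). Transcript counts do not report on p27Kip1 protein, which is set to a large extent by its degradation.

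DUSP16 was at 62.2, 61.6 and 59.1 CPM in the wild type and at 93.7, 89.6 and 95.8 CPM in the mutant. The gap between the genotypes was several times the range within either, with coefficients of variation of 2.70% and 3.40%. The fold change was 1.53 (log2 0.61, SE 0.066).

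The 2 transmembrane genes between ETV6 and DUSP16 were also higher. LRP6, which forms the WNT receptor with a Frizzled protein, had the highest CPM of the 9 genes, at 272, 282 and 290 CPM in the wild type and 320, 400 and 335 CPM in the mutant. Mutant replicate 2 stood above the other mutant libraries, and the coefficient of variation went from 3.19% in the wild type to 11.98% in the mutant. The fold change was 1.25 (log2 0.32, SE 0.066), and the log2 value was 0.21 without mutant replicate 2. MANSC1, which encodes a membrane protein with a MANSC domain, was at 27.1, 28.5 and 26.1 CPM in the wild type and 54.4, 47.0 and 51.1 CPM in the mutant. No mutant library came near the wild-type range, and the fold change was 1.87 (log2 0.90, SE 0.086).

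The largest fold change of the 9 belonged to a gene of low expression at the other end of the region. STYK1, which encodes a membrane protein with a kinase-like domain, had 19, 13 and 17 counts in the wild type and 62, 59 and 58 in the mutant. These counts equal 1.97, 1.65 and 2.14 CPM against 7.08, 7.65 and 6.12 CPM, so that each mutant library was well above each wild-type library. The fold change was 3.57 (log2 1.84, SE 0.22). Its neighbour MAGOHB, only 5.32 kb away, was at 25.5, 34.1 and 29.2 CPM and at 26.96, 29.8 and 32.2 CPM, and the mutant libraries lay within the wild-type range. The log2 difference of MAGOHB was 0.01 (SE 0.11), its sign depended on the scaling, and it was -0.01 with upper-quartile factors.

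MAGOHB encodes a core protein of the exon junction complex, which marks spliced mRNA, and it has a close copy on another chromosome, MAGOH. The longest open reading frames of both genes shared 85.5% of their bases, and their products 145 of 148 residues. No exact window of 50 bases of the MAGOHB frame occurred in the longest MAGOH transcript. Reads without a unique alignment were counted apart from the genes (11.47 to 12.55% of reads per library). That share is over all genes and not for this pair. Reads that match both genes equally would have been dropped, but the MAGOHB frame held no exact match of 50 bases. Shorter matches and bases outside the frame were not checked, so the loss of reads from either gene was not tested. MAGOH was at 34.4 ± 4.45 and 30.2 ± 5.16 CPM and was not called (edgeR adjusted p = 0.257).

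ETV6, the ETS repressor gene, was not called. It was at 13.1, 15.1 and 13.2 CPM in the wild type and 10.6, 12.2 and 13.3 CPM in the mutant, and mutant replicate 3 fell within the wild-type range. Its log2 difference was -0.19 (SE 0.13), and 93 to 126 counts per library put counting error alone at 8.91 to 10.4%. CREBL2, which encodes a small bZIP protein related to CREB, was at 42.4, 47.7 and 45.5 CPM and at 45.6, 50.3 and 52.8 CPM. Its highest wild-type library exceeded the lowest mutant library, and the log2 difference was 0.14 (SE 0.082).

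GPR19, an orphan G protein-coupled receptor gene between CREBL2 and CDKN1B, was the 1 gene of the 9 that was called lower. It had 43, 27 and 34 counts in the wild type and 20, 16 and 25 in the mutant, or 4.47, 3.43 and 4.28 CPM against 2.29, 2.07 and 2.64 CPM. The genotypes did not overlap, but counting error alone was 15.2 to 25.0% per library. The log2 fold change was -0.79 (SE 0.24), which is 1.73-fold lower. The call was lost with DESeq2 (log2 -0.80) and when mutant replicate 2 (-0.73), wild-type replicate 1 (-0.71) or wild-type replicate 3 (-0.76) was left out, and the direction was the same in all 10 alternatives.

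The authors' deposited table gives close values for all 9 genes. Its log2 fold changes were 1.84 for STYK1, 0.89 for MANSC1, 0.60 for DUSP16, 0.33 for CDKN1B and 0.31 for LRP6. In the same authors' deposited table CREBL2 had 0.13, ETV6 -0.20 and GPR19 -0.81, and the deposited value for MAGOHB lay below 0 by less than its standard error of 0.134. At an adjusted p under 0.05 that table would call STYK1, MANSC1, DUSP16, CDKN1B and LRP6, but not GPR19.

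Levels were compared between genes per kilobase of merged exons. These are all GENCODE v29 exons of a gene and not those of the expressed transcripts, so the order below depends on annotated length. MAGOHB has 4.86 kb and its copy MAGOH 1.46 kb, which puts wild-type means of 29.6 and 34.4 CPM at 6.09 and 23.5 CPM per kb. In the wild type CDKN1B led with 30.2 ± 1.03 CPM per kb, followed by LRP6 with 27.2 ± 0.868, CREBL2 with 11.5 ± 0.68 and DUSP16 with 10.6 ± 0.288. MAGOHB followed with 6.09 ± 0.891 CPM per kb, MANSC1 with 4.53 ± 0.201, ETV6 with 1.95 ± 0.161, GPR19 with 1.55 ± 0.21 and STYK1 with 0.562 ± 0.0725. CREBL2 and DUSP16 were the only neighbours in this wild-type order whose libraries overlapped. In the mutant the order of level per kb was CDKN1B, LRP6, DUSP16, CREBL2, MANSC1, MAGOHB, STYK1, ETV6 and GPR19. Libraries of CDKN1B and LRP6 overlapped there (38.1 ± 1.31 and 34.0 ± 4.07 CPM per kb), and so did those of STYK1 and ETV6 (2.03 ± 0.225 and 1.70 ± 0.19). STYK1 thus went from last of 9 to the level of ETV6.

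**Figure D2:**
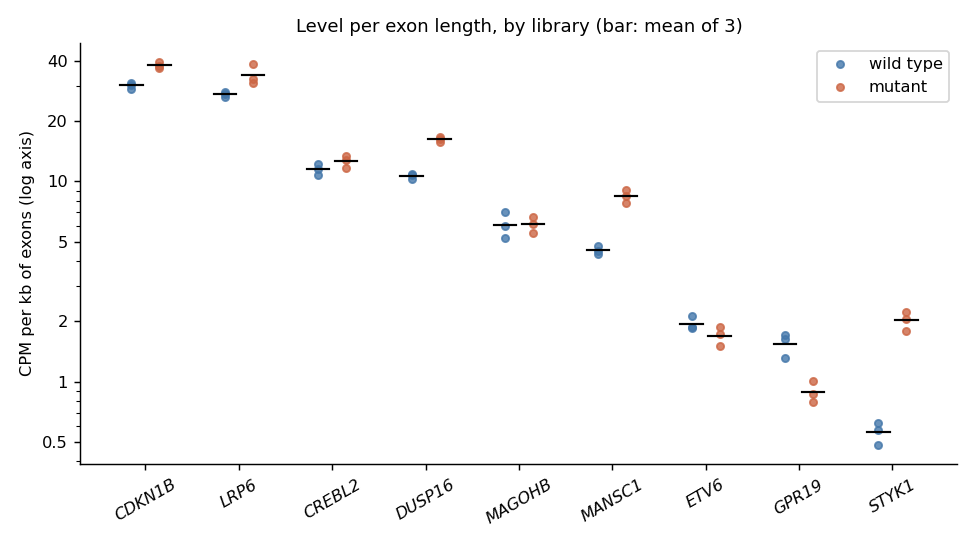
Level of the 9 genes in CPM per kb of merged exons (vertical log axis), ordered by the wild-type mean; points are the 3 libraries of each genotype and bars their means. The 9 genes ran from 0.562 to 30.2 CPM per kb in the wild type, and STYK1 moved up in the mutant to the level of ETV6.

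Genes around the 9 gave a mixed picture. The window from 1 Mb before MAGOHB to 1 Mb after CDKN1B held 129 other genes of the count table. Of these, 70 had 0 counts in all 6 libraries and 22 passed the filter on low counts. Of the 22 tested, 7 were called higher, 1 lower and 14 were not called, which is 36.4% called against 21.2% of all tested genes. DESeq2 called 3 of the 22 higher and 1 lower, against 1175 higher and 892 lower of the 14835 tested genes. Chromosome 12 as a whole had 122 higher and 77 lower of 782 tested, or 25.4%. The median log2 fold change was 0.11 for the 22 genes and 0.01 for the chromosome.

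Called genes also lie between and beside the 9. LOH12CR1, which lies between MANSC1 and DUSP16, was at 12.03 ± 0.933 and 16.6 ± 1.25 CPM (log2 0.46, SE 0.12, edgeR adjusted p = 0.00978). DESeq2 did not call it (adjusted p = 0.0642), nor did edgeR without wild-type replicate 3 (adjusted p = 0.0589). APOLD1, the gene next to CDKN1B, was at 6.38 ± 0.672 CPM in the wild type and rose to 10.3 ± 1.02 CPM in the mutant (edgeR adjusted p = 0.00228, log2 0.71, SE 0.16). Its annotated span, 12725917 to 12829975, overlaps that of DDX47, 12813316 to 12829981, on the same strand. What this overlap does to the counts of either gene was not tested. From LRP6 to APOLD1, a stretch chosen after its values were seen, 8 genes were tested. Of them 6 were called higher, GPR19 lower and CREBL2 not at all, with a median of 0.40. GPR19 thus differed in sign from CDKN1B, its neighbour across 18.9 kb.

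Of the 6 tested genes that start beyond the start of APOLD1, 5 were not called, DDX47 among them. The other was EMP1, which encodes an epithelial membrane protein and fell from 9.03 ± 0.477 to 1.68 ± 0.385 CPM (edgeR adjusted p = 2.59e-08, log2 -2.40, SE 0.21). On the far side, toward the lectin-like receptor genes, CLEC2B was at 3.28 ± 0.275 and 5.57 ± 1.40 CPM (log2 0.75, SE 0.22, edgeR adjusted p = 0.0185). It was not called by DESeq2 (adjusted p = 0.111), nor by edgeR once wild-type replicate 1 (0.0777) or mutant replicate 2 (0.134) was left out. The antisense transcript KLRK1-AS1 rose from 1.09 ± 0.397 to 2.74 ± 0.303 CPM (log2 1.35, edgeR adjusted p = 0.00347). The other called genes on that side were noncoding or pseudogene rows without a symbol, at log2 fold changes of 0.68 to 1.28, and DESeq2 did not call 2 of these 3. The abundant genes YBX3 (286 ± 3.54 and 272 ± 6.75 CPM), GABARAPL1 (53.8 ± 0.26 and 58.4 ± 4.29), KIAA1467 (60.4 ± 1.90 and 64.8 ± 4.85) and EIF2S3L (291 ± 1.55 and 279 ± 7.87) were not called. EIF2S3L is a close copy of an X-linked gene, so reads that match both equally may have been dropped.

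**Figure D3:**
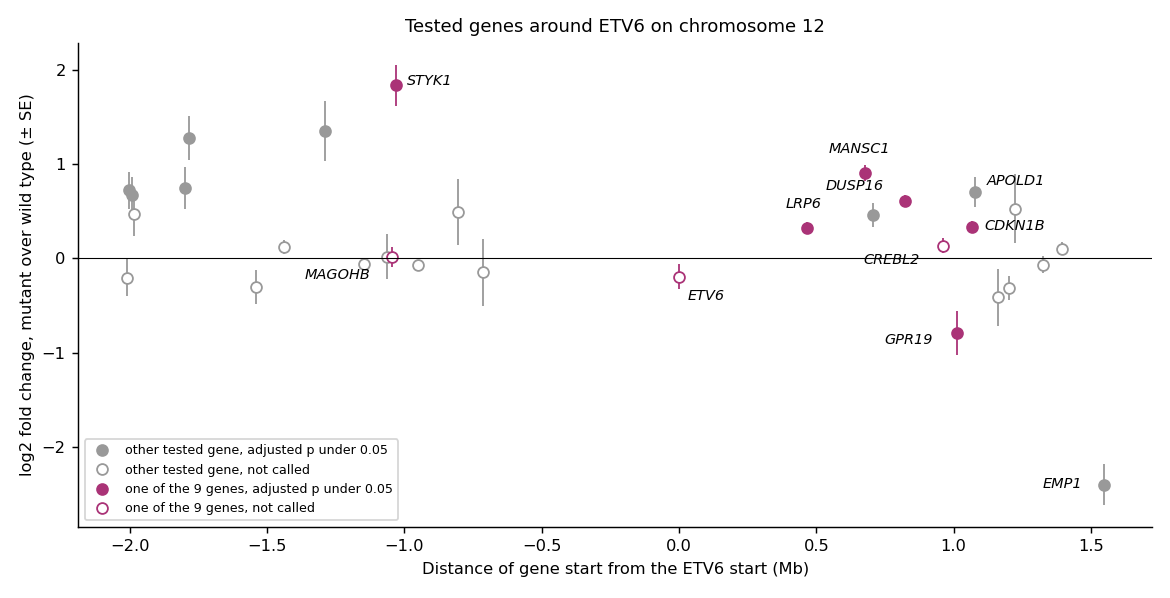
Log2 fold change of mutant over wild type with SE (vertical axis) of the 31 tested genes of the window, against the distance of each gene's start from the ETV6 start in Mb; filled points were called. The cluster from LRP6 to APOLD1 lies mostly above 0, with GPR19 below it, and EMP1 is the lowest point at -2.40.

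Overlapping genes could add reads to the 9 genes or take reads from them as ambiguous, since the strand setting of the counting is not given. Ambiguous reads were counted apart from the genes (1.70 to 1.79% of reads per library), and the genes they came from are not known. The counts below leave these reads out, so they do not show how many were lost to overlap. By the annotation, LRP6, MANSC1, DUSP16, CREBL2 and GPR19 overlap genes of the opposite strand. The most abundant of these, BCL2L14 opposite LRP6, had 20 counts over all 6 libraries against 7137 and 9060 LRP6 counts in the 2 genotypes. The others had at most 4 counts. A same-strand noncoding gene within CDKN1B was not in the count table.

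Related genes outside the region were taken from 6 lists, chosen by the roles of the 9 genes and with earlier results of these data known. The called share of each list stands against 21.2% of all tested genes, 11.9% higher and 9.26% lower. Among 15 tested ETS factors other than ETV6, 1 rose, 1 fell and 13 were not called, a share of 13.3%, with a median of -0.06. ETS1 fell from 29.8 ± 1.03 to 11.2 ± 3.13 CPM (edgeR adjusted p = 2.11e-07, log2 -1.41, SE 0.14). ELF4 was at 68.4 ± 4.24 and 80.3 ± 4.11 CPM (log2 0.23, edgeR adjusted p = 0.0218). It was not called by DESeq2 (adjusted p = 0.0730), nor by edgeR when mutant replicate 1 (0.0545), mutant replicate 3 (0.0746), wild-type replicate 2 (0.100) or wild-type replicate 3 (0.0524) was left out. The repressor gene ETV3 was not called (log2 -0.06, edgeR adjusted p = 0.712).

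Of 21 tested MAP kinase phosphatases, JNK and p38 kinases and their upstream kinases, 3 were called higher, 1 lower and 17 not at all, or 19.0%, with a median of -0.01. DUSP8, a phosphatase of the same JNK-directed group as DUSP16, was at 5.36 ± 1.25 and 8.51 ± 1.45 CPM (log2 0.66, edgeR adjusted p = 0.0146). DUSP2 was at 6.19 ± 0.373 and 9.48 ± 0.981 CPM (log2 0.61, edgeR adjusted p = 0.00746), and DUSP4 at 4.51 ± 0.203 and 6.86 ± 0.638 CPM (log2 0.61, edgeR adjusted p = 0.0182). DESeq2 called none of these 3 (adjusted p = 0.0766, 0.0649 and 0.145). The DUSP8 call was also lost when mutant replicate 1 (0.0566), wild-type replicate 1 (0.0543) or wild-type replicate 2 (0.0721) was left out. The DUSP4 call was lost without wild-type replicate 3 (0.0659) or mutant replicate 3 (0.0933). DUSP10, which also acts on JNK and p38 kinases, was at 3.41 ± 0.199 and 2.14 ± 0.904 CPM and was not called (log2 -0.64, edgeR adjusted p = 0.111), but was without mutant replicate 3 (0.0403). MAPK8, which encodes JNK1, was at 40.4 ± 1.89 and 32.6 ± 1.90 CPM (log2 -0.31, edgeR adjusted p = 0.0110), a call lost without wild-type replicate 3 (0.0656).

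Of 27 tested CDK inhibitors, G1 cyclins and kinases and p27 turnover genes, 6 rose and 21 were not called, or 22.2%, with a median of 0.13. EdgeR called 0 lower, and 0 were lower at an unadjusted edgeR p under 0.05. DESeq2 called 5 higher and 0 lower. The other inhibitors of the CDKN1B family were not called, with CDKN1A at 6.15 ± 0.256 and 7.65 ± 2.05 CPM (edgeR adjusted p = 0.287) and CDKN1C at 11.3 ± 2.02 and 12.6 ± 2.73 CPM (0.557). The D-type cyclin genes CCND2 and CCND1 rose from 38.3 ± 0.921 to 62.96 ± 2.01 CPM (log2 0.71, edgeR adjusted p = 2.57e-07) and from 9.69 ± 1.44 to 14.9 ± 1.01 CPM (log2 0.62, edgeR adjusted p = 0.00218). Their partner kinase gene CDK6 rose by 0.37 on the log2 scale and the CDK phosphatase gene CDKN3 by 0.32. FOXO3, which encodes a transcription factor known to act on CDKN1B, had a log2 change of 0.34 (edgeR adjusted p = 0.00529, and 0.0569 without mutant replicate 2). CCNE2, an E-type cyclin gene, had 0.32 (edgeR adjusted p = 0.0238). DESeq2 did not call it (adjusted p = 0.130), and edgeR did not once wild-type replicate 3 (0.108) or mutant replicate 2 (0.0838) was left out.

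Of 32 tested WNT receptor and pathway genes, 7 were called higher, 6 lower and 19 not at all, or 40.6%, with a median of 0.005 that does not hang on FZD10, the lowest value. LRP5, the paralogue of LRP6, rose from 85.7 ± 3.75 to 103.9 ± 7.47 CPM (edgeR adjusted p = 0.00430, log2 0.28, SE 0.067), next to a log2 value of 0.32 for LRP6. For the Frizzled gene FZD10, 48 counts in the wild type stood against 0 in the mutant. With a floor of 3 counts over the mutant libraries this is at least 16.4-fold lower. FZD7 fell by 0.42 on the log2 scale. RNF43, a ubiquitin ligase gene that limits Frizzled receptors, rose from 2.02 ± 0.223 to 4.41 ± 1.19 CPM (log2 1.13, edgeR adjusted p = 0.00304). The transcription factor gene LEF1 fell by 0.51 on the log2 scale, and APC, of the destruction complex, rose by 0.37. KREMEN2, a receptor of the WNT inhibitor DKK1, was at log2 -0.51 (edgeR adjusted p = 0.0149). It was not called by DESeq2 (adjusted p = 0.0650), nor by edgeR when wild-type replicate 1 (0.0600), mutant replicate 2 (0.0677) or mutant replicate 3 (0.0696) was left out. The 7 higher calls were 4 without wild-type replicate 3 or without mutant replicate 3.

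The last 2 lists cover the protein partners of MAGOHB and the relatives of CREBL2. Of 16 tested genes of the exon junction complex and nonsense-mediated decay, 1 was called higher, 1 lower and 14 not at all, or 12.5%, with a median of -0.08. SMG1, a kinase gene of nonsense-mediated decay, had a log2 change of 0.40 (edgeR adjusted p = 0.00449, and 0.0521 without wild-type replicate 2). WIBG, whose product removes the complex from mRNA, had -0.30 (edgeR adjusted p = 0.0445), a call that DESeq2 did not make (adjusted p = 0.181) and that edgeR lost when any 1 of the 6 libraries was left out (0.0614 to 0.158), as well as with no filter (0.0629). Of 15 CREB and ATF factors and their coactivators, 4 rose and 11 were not called, or 26.7%, with a median of 0.11. EdgeR called 0 of them lower, and 0 were lower at an unadjusted edgeR p under 0.05. DESeq2 called 4 of them higher and 0 lower. The coactivator genes CREBBP and EP300 rose from 119 ± 7.80 to 173 ± 2.85 CPM (log2 0.54, edgeR adjusted p = 4.42e-07) and from 148 ± 6.31 to 207 ± 19.3 CPM (log2 0.48, edgeR adjusted p = 8.02e-06). CREB3L1 rose by 0.73 and CREB3L2 by 0.26 on the log2 scale.

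**Figure D4:**
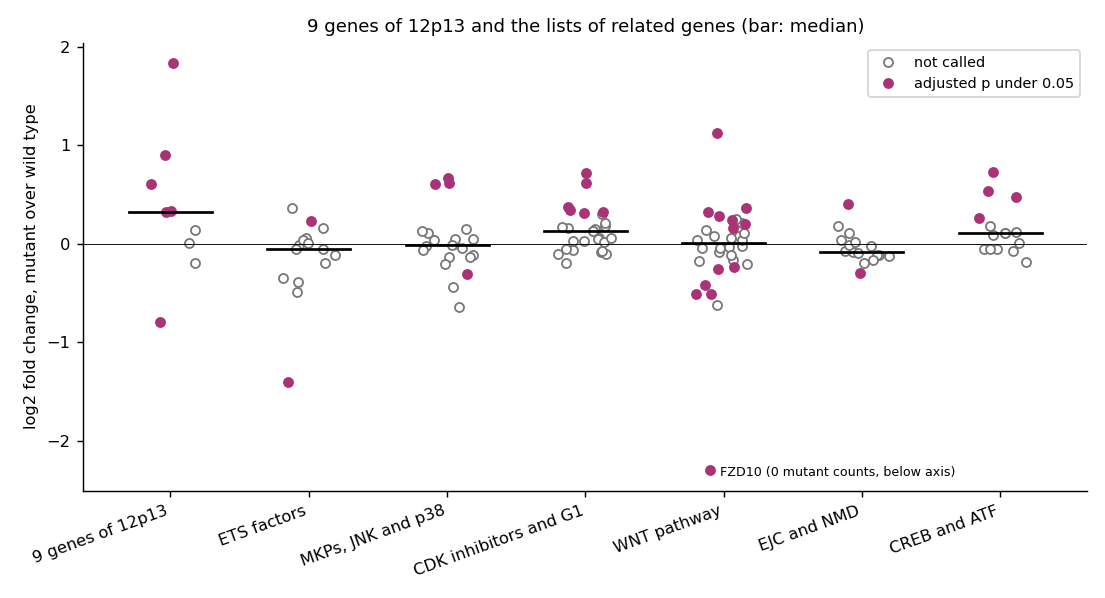
Log2 fold change of mutant over wild type (vertical axis) for the 9 genes of 12p13 and the tested members of the 6 lists; filled points were called and bars are medians. FZD10, with 0 mutant counts, is drawn at the lower edge; the median of the 9 genes, 0.32, stands beside list medians of -0.08 to 0.13.

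The most similar profiles over the 6 libraries were sought among the tested genes other than the 9 of the region. The measure was the Euclidean distance of log2 CPM after subtraction of each gene's own mean. WDR3, CCDC47 and NOC3L came closest to ETV6, at distances of 0.0414, 0.0611 and 0.0778. The closest to DUSP16 were GNG4 (0.0584), SEPT3 (0.0951) and SYNJ2 (0.0983), and to CDKN1B C7orf31 (0.0576), ARHGEF26 (0.0674) and COQ7 (0.0698). None of these most alike genes lies on chromosome 12, which holds 782 of the 14835 tested genes, so nothing is read from their absence.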

How the data were processed

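The authors deposited raw counts per gene for 3 wild-type and 3 mutant polyA libraries, without normalization. Per the submitters' processing notes, the tools were TopHat2 2.1.1, HTSeq and DESeq2 and the build hg19; the sources used here give no other versions and no strand setting. Also deposited was a DESeq2 table with a mean signal, log2 fold changes with errors, a Wald score, p-values and adjusted p-values, and a mark of other kind that was not used. All 6 count columns were used, 0 were left out, and the 5 closing rows, which count reads assigned to no gene (22.4 to 24.3% of reads), were set aside.

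Symbols were known for 52610 genes and GENCODE v29 positions for 52338. Counts were fitted in R 4.3.3 with edgeR 4.0.16: filterByExpr by genotype, TMM scaling, robust quasi-likelihood F tests (two-sided) with genotype as the only term, and Benjamini-Hochberg adjustment over all tested genes, with calls under 0.05. The prior count behind the log2 fold changes is 0.125 and SEs derive from the F statistic. The fit was tested on simulated data. At 3 counts a floor was set over a group's libraries; floors and counting errors cover counting alone, because PCR copies were not marked by molecular identifiers. Alternatives were DESeq2 1.42.0, upper-quartile factors, no filter beyond 1 count, a replicate block and each library left out.

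The members and lists were chosen with earlier results of these data known. Named were CTCF, all 9 members, the called genes with a symbol and the 4 most abundant uncalled genes of the window, up to 6 called genes of each list by absolute log2 fold change, MAGOH, LRP5, ETV3, DUSP8, DUSP10, CDKN1A and CDKN1C, and the 3 most alike genes of ETV6, DUSP16 and CDKN1B.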

Additional observations from a re-analysis of the deposited data

How the results depend on the processing

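Under DESeq2, upper-quartile factors, no filter beyond 1 count, the replicate block and each library left out, the 5 higher calls among the 9 genes stayed at 5, and 8 of the 9 kept their direction. MAGOHB, not called under any of these, turned to -0.0065 with upper-quartile factors and ran from -0.093 (without wild-type replicate 1; -0.061 without mutant replicate 3) to 0.12. The GPR19 call was the 1 lower call, and the count was 0 with DESeq2 and 0 to 1 with a library left out. Under DESeq2 the other genes of the window had 3 higher calls, the ETS factors 0, the MAP kinase list 0, and the exon junction list 0 lower. The last count was also 0 with no filter. With no filter there were 2 lower calls in the window, 2 among ETS factors and 2 in the MAP kinase list; with upper-quartile factors 2 and 2 in those lists. Leaving out 1 library gave 5 to 7 higher and 1 to 2 lower calls in the window, 0 to 1 and 1 to 2 among ETS factors, 2 to 3 and 1 to 3 in the MAP kinase list, 4 to 7 and 5 to 9 in the WNT list, 4 to 8 higher in the CDK list, 0 to 2 and 0 to 1 in the exon junction list and 4 to 5 and 0 to 1 in the CREB list. Over all tested genes it gave 1374 to 1825 higher and 1042 to 1640 lower. The highest of these, 1825 higher and 1640 lower, came without mutant replicate 1, against 1768 and 1374 with all 6 libraries. The cause of these changes was not tested.

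Replicate numbers were not taken as pairs: deviations of same-numbered libraries correlated at 0.0763, 0.0898 and -0.116. With the replicate block, 1959 genes were called higher and 1615 lower, and 2 lower calls were found in the window and 2 in the MAP kinase list. Counts of 13 to 62 per library limit STYK1 and GPR19.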
